A study of Mus musculus with 14 samples.

Results

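The adult globin genes and Alas2, the erythroid gene for the first enzyme of heme synthesis, were followed in the medial prefrontal cortex of mice that had been perfused before the tissue was taken. The 7 genes were chosen by name as the transcripts that red blood cells bring into a tissue sample: the alpha globins Hba-a1 and Hba-a2, the beta globins Hbb-b1, Hbb-b2, Hbb-bs and Hbb-bt, and Alas2. Of the 7, 6 had a probe, each printed as 1 spot, among 20887 genes named on the array, and none was found for Hbb-b1. The test across all genes took in 5 of them, because Alas2 was too dim for its filter. Hbb-bs passed that filter only through the susceptible mice, so counts and medians over the 5, and the limma p of Hbb-bs between groups, are given as descriptions.

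Wild-type C57BL/6 mice went through repeated social defeat stress or, as naive controls, through cage transfer. The defeated mice were labelled by behavioural phenotype as susceptible (6 mice) or resilient (3 mice), and 5 mice were naive. How the phenotype was scored, and the age and sex of the mice, are not given in the sources used here. At 4 h after the last session each mouse was perfused through the heart with ice-cold buffered saline, a 1.5 mm punch of the medial prefrontal cortex was collected, and 35 ng of its total RNA was labelled with Cy3 and hybridised to 1 single-colour array, so that each array is 1 mouse.

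Signals are given as log2 of the scanner's background-corrected intensity minus the 75th percentile of the same array, so that 0 is the 75th percentile and a difference of 1 is a 2-fold difference. Between 48.0% and 65.4% of spots were well above background on an array, and no spot was saturated. The 75th percentile itself, a measure of how bright an array was, averaged 8.09 ± 0.59 log2 units in susceptible, 7.91 ± 0.12 in resilient and 7.70 ± 0.68 in naive mice (SD, n = 6, 3 and 5). The arrays lay on 3 slides, of which slides 1 and 2 held all groups and slide 3, scanned on another day, held susceptible and naive mice. Every naive array occupied the first row of its slide and every susceptible or resilient array the second, so row and defeat cannot be told apart. All 11 neuron, 7 astrocyte, 6 oligodendrocyte and 8 microglia markers that were looked up were well above background on all 14 arrays. The mice came from separate experiments whose membership is not given in the sources used here.

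Haemoglobin is a tetramer of alpha and beta globin chains with a heme group in each, and its genes are switched on together in maturing red cells. Mature mammalian red cells have no nucleus, but reticulocytes, the young red cells in the circulation, keep globin mRNA in large amounts, so blood left in vessels adds globin transcripts to a tissue's RNA. Perfusion washes blood out of the vessels, and what it leaves can differ from mouse to mouse. Globin transcripts have also been described at low levels in neurons and glia of rodents. Alas2 encodes the form of 5-aminolevulinate synthase made in erythroid cells, where it sets the pace of heme synthesis, while Alas1 does so in other tissues. C57BL/6 mice carry the single haplotype of the beta globin locus, with Hbb-bs and Hbb-bt, whereas Hbb-b1 and Hbb-b2 are the genes of the diffuse haplotype of other strains.

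The matched promoters of these genes carry some of the short motifs known from erythroid promoters, and they are shown as a description. Whether the motifs bear on the signals in these mice was not tested. RefSeq promoters (GRCm38.p6) were matched for 5 of the 7 genes, not for Hbb-b1 or Hbb-b2, and the 150 bases before each RefSeq start were searched on both strands for the CCAAT box, the GATA motif, the CACCC box and a TATAA box. Capitals mark every match, in the reading direction of the gene, and a match on the other strand appears as its reverse complement. Hba-a1 is at chr11:32283522-32283671 on the plus strand, Hbb-bs at chr7:103827929-103828078 on the minus strand, Hbb-bt at chr7:103813924-103814073 on the minus strand and Alas2 at chrX:150547267-150547416 on the plus strand.
Hba-a1: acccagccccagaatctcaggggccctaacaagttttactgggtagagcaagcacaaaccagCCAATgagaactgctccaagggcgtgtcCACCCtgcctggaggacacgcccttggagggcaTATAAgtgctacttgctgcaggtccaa
Hbb-bs: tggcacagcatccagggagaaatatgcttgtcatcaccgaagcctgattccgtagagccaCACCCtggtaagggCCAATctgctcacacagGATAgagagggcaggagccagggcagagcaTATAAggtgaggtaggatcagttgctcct
Hbb-bt: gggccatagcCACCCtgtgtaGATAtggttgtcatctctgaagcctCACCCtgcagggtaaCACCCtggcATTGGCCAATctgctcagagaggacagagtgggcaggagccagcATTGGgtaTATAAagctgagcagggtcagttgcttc
Alas2: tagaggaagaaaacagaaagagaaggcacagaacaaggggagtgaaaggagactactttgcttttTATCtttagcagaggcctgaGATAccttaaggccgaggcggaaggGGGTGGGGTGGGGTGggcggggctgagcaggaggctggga

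Hba-a1 held a CCAAT box 88 bases, a CACCC box 60 bases and a TATAA box 27 bases before the start, and no GATA motif in this window. The window of Hba-a2, at chr11:32296342-32296491 on the plus strand, differed from it only in where the start lies: 147 bases were identical with 0 mismatches. Hbb-bs held all 4 motifs once, the CACCC box 90, the CCAAT box 76, the GATA motif 59 and the TATAA box 29 bases before the start. Hbb-bt also held all 4, with 3 CACCC boxes, 3 CCAAT boxes of which a pair on opposite strands adjoin, a GATA motif at 129 and a TATAA box at 28 bases. The Hbb-bs and Hbb-bt windows were identical at 115 aligned bases, with 29 mismatches and 12 gap positions. Alas2 held 2 GATA motifs, 1 on each strand, and 3 CACCC boxes in a run on the other strand, with no CCAAT box and no TATAA box. Over 32851 RefSeq promoters of the same length, 24.5% held a CCAAT box, 35.7% a GATA motif, 37.4% a CACCC box, 14.2% a TATAA box and 0.454% all 4.

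The alpha globins were brighter in most susceptible mice than in any naive mouse, and 1 susceptible mouse lay among the naive ones. Hba-a1 (probe for NM_008218, chromosome 11) had a lowest value of -0.12, a median of 1.91 and a highest value of 3.08 in susceptible mice. It stood at 0.13, 1.14 and 2.50 in resilient mice and at -0.55, 0.29, 1.17, 0.73 and 0.32 in naive mice. Of the 6 susceptible mice 5 lay above every naive mouse, and susceptible 6 lay inside the naive range. Over all genes tested, 2.33% had every susceptible mouse above every naive mouse and 6.57% had at most 1 exception. Hba-a2 (NM_001083955, chromosome 11), the other adult alpha globin gene, had a lowest value of 2.26, a median of 4.51 and a highest value of 5.64 in susceptible mice. It stood at 2.68, 3.56 and 5.25 in resilient mice and at 1.56, 2.60, 3.61, 3.17 and 3.04 in naive mice. Susceptible 2 and 5 were highest and naive 1 lowest for both probes. The genes are near-identical copies, and whether each probe reads only its own gene was not tested, which holds for the beta globins too.

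The beta globins had the same order of group means as the alpha globins. Hbb-bt (NM_008220, chromosome 7), a beta globin of the C57BL/6 haplotype, had a lowest value of -0.43, a median of 1.66 and a highest value of 2.99 in susceptible mice. It stood at -0.65, 0.90 and 2.37 in resilient mice and at -1.78, -0.53, 0.48, 0.32 and -0.27 in naive mice. Here too 5 of 6 susceptible mice, all but susceptible 6, lay above every naive mouse. Hbb-bs (NM_001201391, chromosome 7), the other beta globin of that haplotype, had a lowest value of -2.99, a median of -2.04 and a highest value of 0.07 in susceptible mice. It stood at -4.47, -2.46 and -1.45 in resilient mice and at -4.48, -3.54, -3.84, -2.51 and -2.79 in naive mice. Its probe was well above background in 6 susceptible, 2 resilient and 2 naive mice, and 4 of 6 susceptible mice lay above every naive mouse. Hbb-b2 (NM_016956, chromosome 7), named for a gene of the other haplotype, had a lowest value of -2.27, a median of -0.48 and a highest value of 1.21 in susceptible mice. It stood at -2.32, -0.90 and 0.10 in resilient mice and at -3.29, -1.68, -0.78, -1.55 and -1.86 in naive mice. It was well above background in all defeated mice and 4 naive mice, and 4 of 6 susceptible mice lay above every naive mouse. The share of all genes with at least 4 of 6 was not taken, for Hbb-b2 as for Hbb-bs. It cannot be lower than the 6.57% with at most 1 exception.

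Alas2 (NM_009653, chromosome X) was well above background only in susceptible mice, in 4 of 6, and on none of the 3 resilient and 5 naive arrays. Its lowest value was -4.37, its median -3.05 and its highest -2.36 in susceptible mice. It stood at -5.10, -4.97 and -3.49 in resilient mice and at -5.13, -5.22, -4.12, -4.23 and -4.69 in naive mice, all of them at background. The measured means were -3.26 ± 0.88 in susceptible, -4.52 ± 0.90 in resilient and -4.68 ± 0.50 in naive mice (SD, n = 6, 3 and 5). Set against the lowest signal that counts as well above background on each dimmer array, the measured susceptible mean was 1.15-fold higher than naive mice, and 1.38-fold higher than resilient mice. That mean includes susceptible mice that were themselves not well above background, so these folds are not strict lower bounds.

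**Figure D1:**
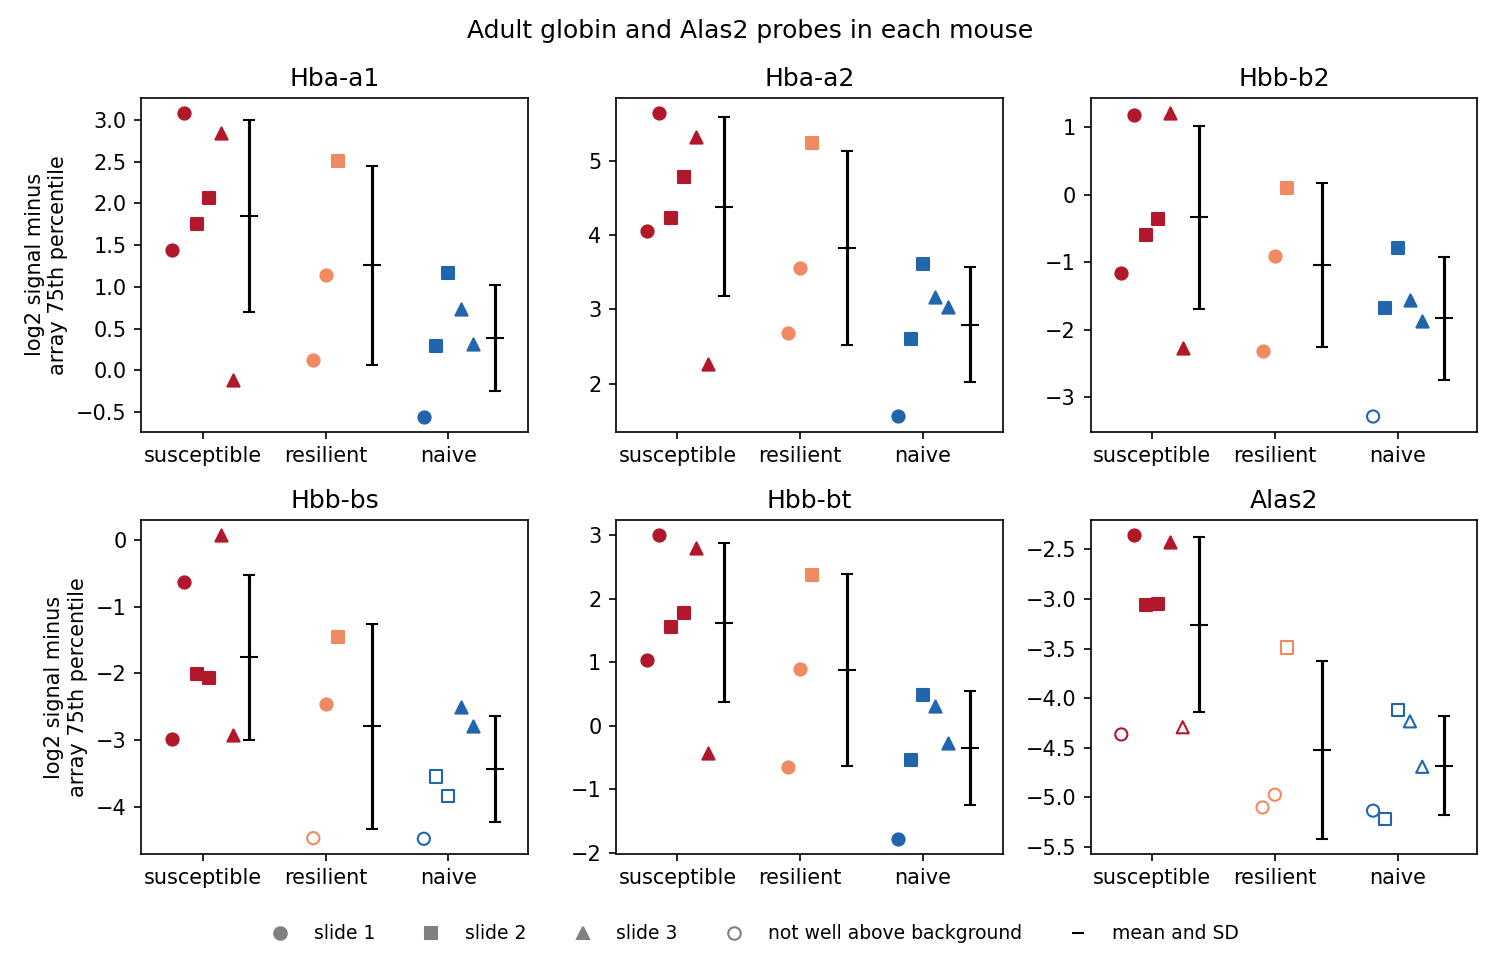
Normalised log2 signal of the 6 probes in each of 14 mice, with susceptible mice on the left, resilient mice in the middle and naive mice on the right; marker shapes stand for slides, open markers for signals not well above background, and bars for the mean and SD. In every globin panel most susceptible mice lie above the naive mice, with 1 or 2 susceptible mice inside the naive range; Alas2 has filled markers only among susceptible mice.

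In susceptible against naive mice, all 5 tested globins had higher means and none passed the test across all genes. Hba-a1 averaged 1.84 ± 1.15 in susceptible and 0.39 ± 0.64 in naive mice (SD, n = 6 and 5), a log2 difference of 1.45 ± 0.53 (SE), or 2.74-fold, with an adjusted p of 0.128 in limma. Hba-a2 averaged 4.38 ± 1.21 in susceptible and 2.79 ± 0.78 in naive mice, a difference of 1.59 ± 0.58 or 3.01-fold (limma, adjusted p = 0.126). Hbb-bt, with the largest difference of the 5, averaged 1.62 ± 1.25 in susceptible and -0.36 ± 0.89 in naive mice, 1.97 ± 0.63 apart or 3.93-fold (limma, adjusted p = 0.094). The SD among susceptible mice was over 1 log2 unit for each of these probes. Hbb-bs averaged -1.76 ± 1.24 in susceptible and -3.43 ± 0.80 in naive mice, 1.67 ± 0.62 apart (limma, adjusted p = 0.129), and Hbb-b2 -0.33 ± 1.36 in susceptible and -1.83 ± 0.91 in naive mice, 1.50 ± 0.63 apart (limma, adjusted p = 0.172).

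The count of globins past the threshold, an adjusted p under 0.05, was thus 0 of 5, where 2.28% of all 14445 genes passed (1.45% as higher), and 5 of 5 had an unadjusted p under 0.05, as 23.4% of all genes did. The median difference of the 5 was 1.59, against 0.02 over all genes, and 0.332% of all genes had a difference above 1, as each of the 5 globins did. In exact two-sided permutation tests of single genes, not adjusted over the 18 run, p was 0.039 for Hba-a1 and for Hba-a2, 0.0736 for Hbb-b2 and 0.0216 for Hbb-bt, where the smallest p the design can give is 0.00433. No permutation p is given here for Hbb-bs, which passed the filter only through susceptible mice, or for Alas2, at background in every naive mouse. With a looser filter, well above background on at least 3 arrays, Alas2 entered the test only through its 4 susceptible arrays and did not pass there either (limma on measured signals, adjusted p = 0.0855). Its difference from naive mice is therefore given only as the fold above, 1.15, set against the background limit. In tissue of mixed cells, more cells that carry a transcript and more of it per cell cannot be told apart, nor can blood left in vessels and RNA made in the tissue.

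The count moved with 1 mouse and with the slide. Without susceptible 6, whose 5 globin values lay inside the naive range, 3 of 5 passed in limma, where 5.17% of all genes did: Hba-a1 at 1.84 (adjusted p = 0.0333), Hba-a2 at 2.01 (adjusted p = 0.0333) and Hbb-bt at 2.38 (adjusted p = 0.0316). Without naive 1, and without susceptible 2, 0 of 5 passed, where 203 and 34 of all 14445 genes did. Hba-a1 was then at 1.22 and 1.21, Hba-a2 at 1.28 and 1.34 and Hbb-bt at 1.62 and 1.70 (limma, adjusted p from 0.159 to 0.227). With the slide as a block, 15.1% of all genes passed (9.03% as higher) and Hbb-bt was the only globin that did, at 2.07 ± 0.63 (limma, adjusted p = 0.0424). With the slide as a block and without susceptible 6, a fit added after seeing the data, 5 of 5 passed, with differences of 2.02 to 2.66, where 19.4% of all genes did. A different background correction, normexp, lowered the difference of the dimmest globins, to 0.52 for Hbb-bs and 0.84 for Hbb-b2. Within each slide all 5 globins were higher in susceptible than in naive mice. The median over the 5 was 3.29 on slide 1 (2 susceptible mice against 1 naive mouse), 1.40 on slide 2 (2 against 2) and 1.155 on slide 3 (2 against 2), where the median over all genes lay between -0.003 and 0.075.

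Resilient mice lay between the other groups in mean for each of the 5 globins, and none of the differences from naive mice passed. Hba-a1 averaged 1.26 ± 1.19 in resilient mice (SD, n = 3), 0.87 ± 0.64 above the naive mean (limma, adjusted p = 0.479), and Hbb-bt 0.87 ± 1.51, 1.23 ± 0.76 above it (limma, adjusted p = 0.389). Resilient 3 was above every naive mouse for all 5 globins and resilient 1 for none, so 1 or 2 of 3 mice exceeded the naive range; for 7.93% of all genes all 3 did. The differences were 1.03 ± 0.70 for Hba-a2, 0.79 ± 0.76 for Hbb-b2 and 0.64 ± 0.74 for Hbb-bs (adjusted p = 0.43, 0.6 and 0.676 in limma). The count was 0 of 5 by adjusted p, where 0.138% of all genes passed (0.0762% as higher), and 0 of 5 at an unadjusted p under 0.05, where 19.6% of all genes did. The median difference was 0.87 against 0.02 over all genes. Hba-a2 and Hbb-bt, 2 of the 5, had a difference above 1, as 0.443% of all genes did. With the slide as a block the count was again 0 of 5, where 3.93% of all genes passed (2.41% as higher), and with the replicate number as a block it was 0 of 5 where 5.32% did, with differences of 0.96 to 1.44. The 95% interval of the difference ran from -0.50 to 2.24 for Hba-a1 and from -0.39 to 2.85 for Hbb-bt. Exact permutation p ranged from 0.214 for Hbb-bt to 0.393 for Hbb-bs, Alas2 was at background in both groups, and 3 mice against 5 cannot give less than 0.0357. Within slides the median over the 5 globins was 1.56 on slide 1 (2 resilient mice against 1 naive) and 2.145 on slide 2 (1 against 2). Without resilient 3 the Hbb-bs difference turned to -0.03 and that of Hba-a1 fell to 0.24, and without resilient 1 that of Hba-a1 was 1.43.

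Between susceptible and resilient mice no globin passed the test, and each difference was under 1.5 times its SE. The susceptible means were higher by 0.59 ± 0.62 for Hba-a1, 0.55 ± 0.68 for Hba-a2, 0.70 ± 0.73 for Hbb-b2, 1.03 ± 0.72 for Hbb-bs and 0.75 ± 0.73 for Hbb-bt, each with an adjusted p of 1 in limma. The count was 0 of 5, also at an unadjusted p under 0.05, and 0% of all genes passed, with or without the slide as a block, while 0.72% had an unadjusted p under 0.05. A difference above 1 was found for 1 of 5 globins, Hbb-bs, and for 0.0277% of all genes. The 95% intervals, -0.74 to 1.91 for Hba-a1 and -0.82 to 2.32 for Hbb-bt, leave room for differences in either direction. The direction turned with the slide: on slide 1 the median over the 5 globins was 1.65 higher in 2 susceptible than in 2 resilient mice, and on slide 2 it was -0.59, with 2 susceptible mice against resilient 3. Without resilient 1 the differences of Hba-a2 and Hbb-bt were -0.021 and -0.014. For each globin 2 of 6 susceptible mice lay above every resilient mouse. The share of all genes with such a count was not taken, so the count is only a description. No permutation p is given here for Alas2, at background in every resilient mouse.

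**Figure D2:**
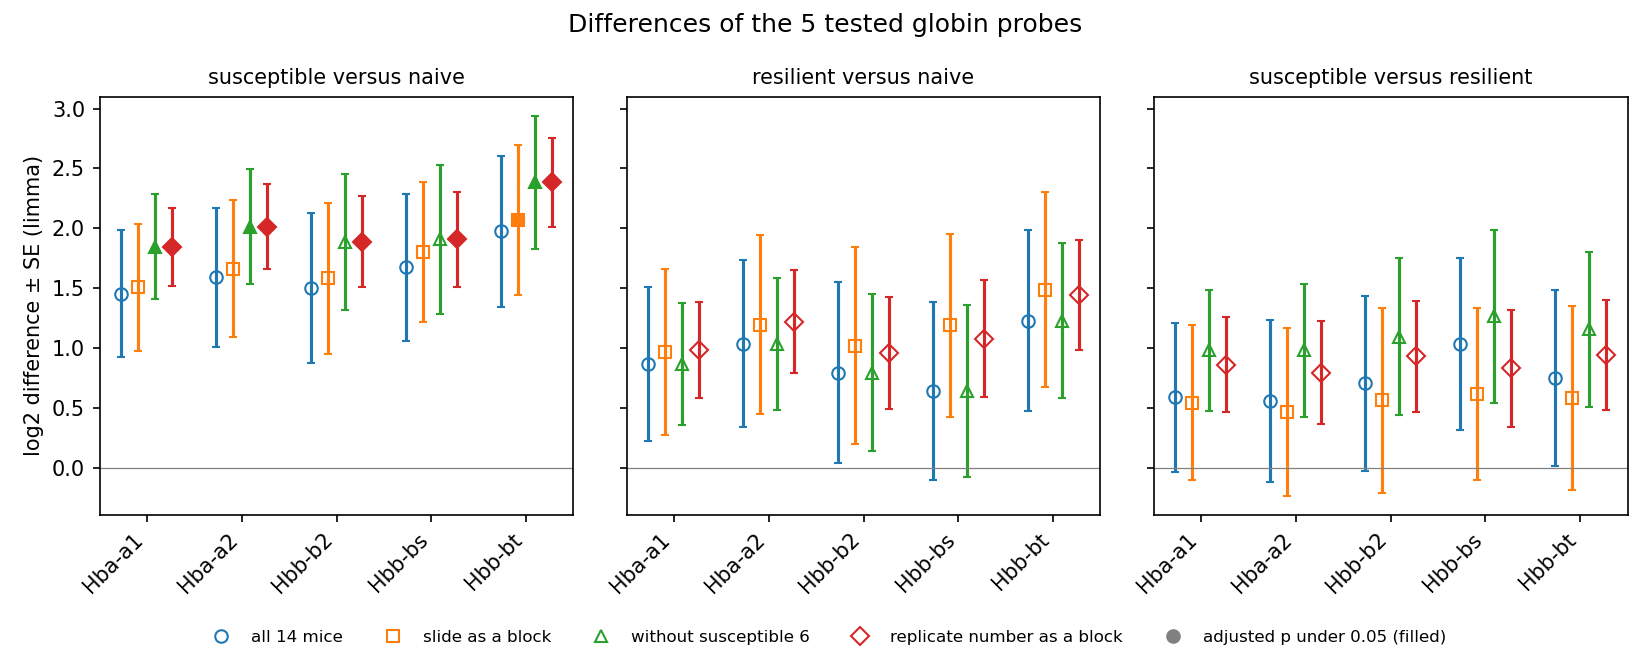
Log2 difference and its SE from limma for the 5 tested globins in the comparisons of susceptible with naive, resilient with naive and susceptible with resilient mice, in the fit of all 14 mice, with the slide as a block, without susceptible 6 and with the replicate number as a block. Filled markers have an adjusted p under 0.05 and occur only in the panel of susceptible against naive mice, where all the differences drawn lie above 0.

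The 2 highest mice were the same for each of the 6 probes. Between the lowest and the highest mouse the probes differed 12.4-fold for Hba-a1, 17.0-fold for Hba-a2 and 27.2-fold for Hbb-bt. For Hbb-b2 and Hbb-bs the measured signals differed 22.5-fold and 23.3-fold, but the lowest of them, in naive 1, was not well above background. Susceptible 2 and susceptible 5 were the highest of all 14 mice for each of the 6 probes, and naive 1 had the lowest measured signal for each of the 5 globins. Among mice of a group the SD left after the group means was 1.00 for Hba-a1, 1.09 for Hba-a2, 1.19 for Hbb-b2, 1.16 for Hbb-bs and 1.19 for Hbb-bt. Over all 14445 genes the median of this SD was 0.233 and its 99th percentile 0.884, so each globin lay above the 99th percentile, with Hbb-bt at rank 33 and Hba-a1 at rank 87 from the most variable. Ranked by the mean of the 5 globins, susceptible 2 (2.45), susceptible 5 (2.45) and resilient 3 (1.75) came first, then susceptible 4, 3 and 1 (1.24, 0.99 and 0.48), and susceptible 6 (-0.70) and resilient 1 (-0.93) stood with naive 2 (-0.57) and above naive 1 (-1.71). No single mouse met the limit of Dixon's test for an outlier within the susceptible or the naive group for any of the probes.

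**Figure D3:**
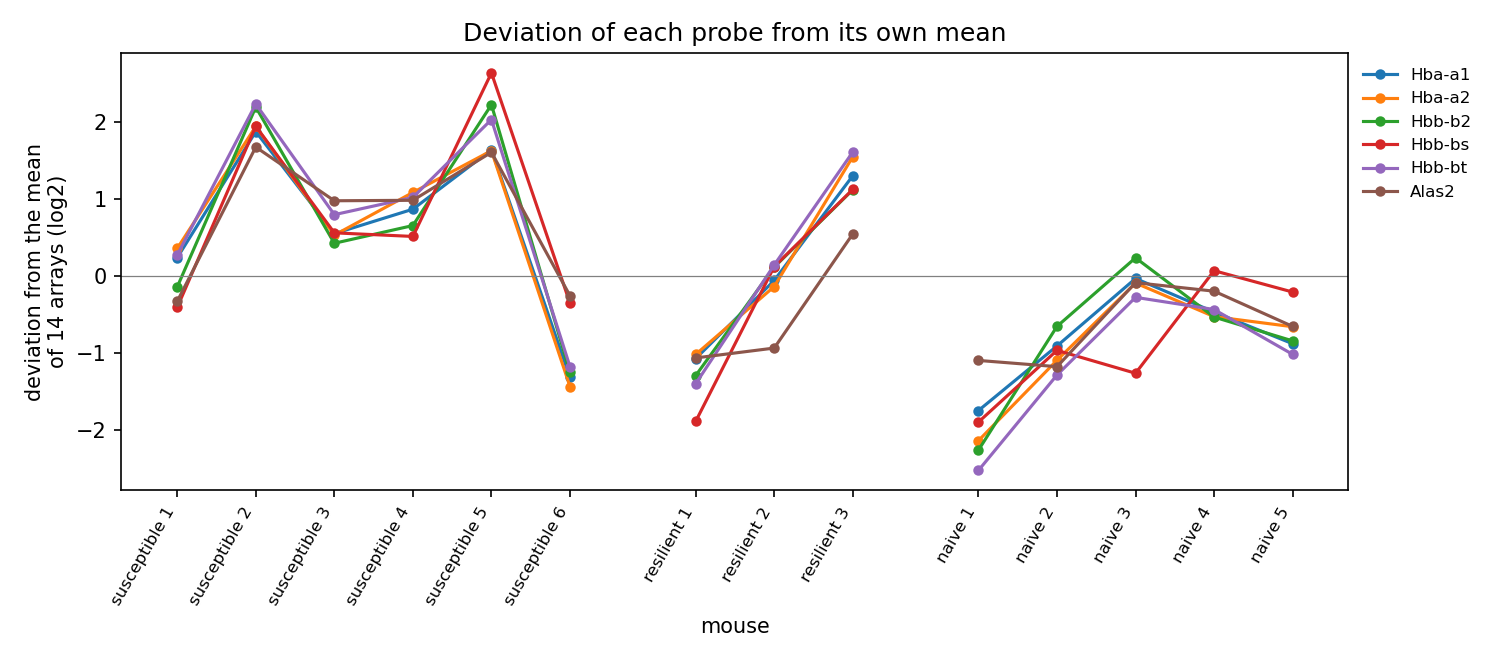
Deviation of each of the 6 probes from its own mean over 14 arrays, in log2 units, for each mouse. The lines run close together, high in susceptible 2 and 5 and resilient 3 and low in naive 1, with Hbb-bs and Alas2 departing from the others in some mice.

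Within a mouse the globin probes kept close to a fixed relation to each other. The difference between Hba-a1 and Hba-a2 had an SD of 0.174 over 14 mice, where each probe alone had an SD of 1.14 and 1.24, and their correlation was 0.993. An alpha and a beta globin, Hba-a1 and Hbb-bt, correlated at 0.99 with an SD of their difference of 0.335. Hbb-b2, named for a gene of the diffuse haplotype that C57BL/6 does not carry, correlated with Hbb-bt at 0.973 with an SD of 0.342. Hbb-bs, dim in most mice, departed further, with SDs of 0.605 to 0.687 against the other globins and correlations of 0.858 to 0.905. Alas2, on another chromosome, correlated with the globins at 0.864 to 0.889. The points of these correlations share the array and its scaling, and probes of the alpha globin pair, and those of the beta globins, may share target sequence. As C57BL/6 does not carry the gene that the Hbb-b2 probe is named for, its signal may not be a reading apart from Hbb-bt and Hbb-bs.

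Hba-a1 was set against 7 other measures across mice, with p adjusted over the 7. Hbb-bs, well above background on 10 of the 14 arrays, followed it, with Pearson's r of 0.871 and Spearman's rho of 0.837 over 14 mice (permutation, adjusted p = 0.00056 and 0.0015). Alas2 had r of 0.885 and rho of 0.859, given as a description with no p because it was well above background on only 4 arrays, all of susceptible mice. Without naive 1 and susceptible 2, the mice farthest from the median of Hba-a1, r was 0.802 for Hbb-bs and 0.836 for Alas2. On deviations from the group means r was 0.813 and 0.886, and on slides 1, 2 and 3 it was 0.967, 0.877 and 0.989 for Hbb-bs and 0.909, 0.876 and 0.95 for Alas2. Within the 6 susceptible mice r was 0.841 for Hbb-bs (exact permutation p = 0.022) and 0.879 for Alas2. The brightness of the array, its 75th percentile, had r of 0.155 with Hba-a1 (rho 0.002, permutation, adjusted p = 0.59 and 1), or 0.069 without the same 2 mice. It had r of 0.349, 0.841 and 0.92 within slides 1, 2 and 3 and 0.632 on deviations from slide means, and with brightness as a covariate the 5 globin differences between susceptible and naive mice were 1.36 to 1.93, against 1.45 to 1.97 without it.

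No other red cell gene passed the test in the fit without the slide. Of 30 listed, 28 had a probe and 16 were tested. In susceptible against naive mice 0 rose and 0 fell, where 2.28% of all genes passed, and the median difference was -0.02. Epb42, Gata1, Nfe2, Rhag, Rhd and Kel, which encode red cell membrane proteins, blood group proteins and erythroid transcription factors, were above background on 0 of 14 arrays, and no probe was matched for Ahsp, the alpha globin chaperone. Slc4a1, the anion exchanger of the red cell membrane, averaged -2.47 ± 0.25 in susceptible, -2.27 ± 0.13 in resilient and -2.49 ± 0.40 in naive mice. Its r with Hba-a1 over 14 mice was 0.2 (rho 0.134, permutation, adjusted p = 0.58 and 0.9), and -0.309 without naive 1 and susceptible 2. On slides 1, 2 and 3, with 5, 5 and 4 mice, it was 0.744, -0.446 and -0.823. The summed linear level of the 28 probes ranged from 80.0 to 88.6 in susceptible, 79.8 to 83.4 in resilient and 81.5 to 90.8 in naive mice, in units of the array's 75th percentile. It was led by Hemgn, which averaged 5.32 in susceptible, 5.28 in resilient and 5.31 in naive mice. With 8 of the 28 probes above background on no array, this sum is no measure of red cell content. The sum of the 6 globin and Alas2 probes ranged from 6.84 to 69.5 in susceptible, 8.40 to 50.4 in resilient and 4.09 to 16.5 in naive mice. Many of the listed genes are also made in brain. The members of smallest p were Car2, carbonic anhydrase 2, at -0.59 (limma, adjusted p = 0.186), Gypc at -1.01 (adjusted p = 0.243) and Bpgm at -0.24 (adjusted p = 0.245). With the slide as a block 15.1% of all genes passed. Car2 and Car1, another carbonic anhydrase, fell there, by 0.51 and 0.33 (limma, adjusted p = 0.0343 and 0.0227).

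The other globin genes, the embryonic and minor chains and the globins of brain and muscle, showed no call. Of 9 listed, 4 were tested, 0 rose and 0 fell, with a median of 0.12 in susceptible against naive mice, and Hba-x, an embryonic alpha-like globin, was above background on 0 arrays. Cygb, cytoglobin of fibroblasts and some neurons, averaged 5.04 ± 0.34 in susceptible, 5.31 ± 0.08 in resilient and 4.58 ± 0.14 in naive mice. Its difference from naive mice was 0.45 in susceptible and 0.73 in resilient mice (limma, adjusted p = 0.0972 and 0.088). With the slide as a block it rose in both, by 0.42 and 0.55 (limma, adjusted p = 0.0234 and 0.0448), where 15.1% and 3.93% of all genes passed.

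Of 13 genes of heme synthesis other than Alas2, all tested, 1 rose and 0 fell in susceptible against naive mice, with a median of 0.085. In that fit 2.28% of all genes passed (1.45% as higher). Slc25a38, the mitochondrial glycine carrier that supplies the first step, stood at 2.62 ± 0.11 in susceptible, 2.67 ± 0.04 in resilient and 2.26 ± 0.10 in naive mice. It rose by 0.36 ± 0.08 in susceptible mice (limma, adjusted p = 0.0435), a call that 1 of the 14 fits with a mouse left out kept (adjusted p from 0.0321 to 0.0914). Tspo, a mitochondrial outer membrane protein, was at -0.32 (limma, adjusted p = 0.116) and Cpox, a later enzyme of the pathway, at 0.20 (adjusted p = 0.307). Alas1, the counterpart of Alas2 outside red cells, averaged 3.69 ± 0.15 in susceptible, 3.73 ± 0.23 in resilient and 3.53 ± 0.20 in naive mice, 0.15 apart between susceptible and naive mice (adjusted p = 0.457).

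Among genes that clear haemoglobin and handle heme iron, the call went the other way. Of 22 listed, 19 were tested, 0 rose and 1 fell in susceptible against naive mice, where 2.28% of all genes passed, with a median of -0.245. Not all went down: 5 of the 19 had a positive difference. Among these was Hp, haptoglobin, at -2.54 ± 0.50 in susceptible, -2.85 ± 0.29 in resilient and -3.185 ± 0.345 in naive mice. Its probe was well above background in 3 of the 5 naive mice and in all defeated mice. Cd163, the macrophage receptor for haemoglobin bound to haptoglobin, was above background on 0 arrays. Slc40a1, ferroportin, which exports iron from cells, averaged -0.99 ± 0.17 in susceptible, -0.71 ± 0.45 in resilient and -0.003 ± 0.262 in naive mice. It fell by 0.98 in susceptible mice (SE 0.16, limma, adjusted p = 0.0191), with a call in 13 of 14 fits that left out a mouse, lost without susceptible 1 (adjusted p = 0.053). The ferritin chains Ftl1 and Fth1, which store iron, were at -0.36 and -0.41 (limma, adjusted p = 0.0925 and 0.107). Hmox1, the inducible enzyme that opens the heme ring, averaged -0.42 ± 0.39 in susceptible, -0.26 ± 0.24 in resilient and 0.38 ± 0.69 in naive mice. It was at -0.80 against naive mice (limma, adjusted p = 0.108) and, with the slide as a block, fell by 0.88 in susceptible and by 1.05 in resilient mice (adjusted p = 0.00995 and 0.0298). With that block Ftl1 and Slc40a1 also fell in susceptible mice, and 2 genes of the list rose: Hmox2, the constitutive heme oxygenase, by 0.30 and Ireb2, an iron-responsive RNA-binding protein, by 0.44 (adjusted p = 0.0426 and 0.0362). Of all genes, 15.1% passed with that block in susceptible and 3.93% in resilient against naive mice.

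Among markers of other blood cells, only neutrophil genes passed the test in the fit without the slide. Of 14 neutrophil genes 5 were tested, 2 rose and 0 fell in susceptible against naive mice, where 2.28% of all genes passed (1.45% as higher). S100a8, a calcium-binding protein abundant in neutrophils, was above background in 5 of 6 susceptible, all 3 resilient and 0 of 5 naive mice. Its measured means were -1.19 ± 1.37 in susceptible, -2.34 ± 0.85 in resilient and -5.26 ± 0.57 in naive mice, the last at background. S100a8 passed the filter only through the resilient mice, so its call is a description and no p is given for it. Set against the lowest signal well above background on each naive array, it was 4.83-fold higher in susceptible and at least 2.17-fold higher in resilient mice. The 4.83 includes a susceptible mouse at background and is not a strict lower bound. S100a9, its partner in the same complex, averaged 0.63 ± 1.33 in susceptible, -0.41 ± 0.96 in resilient and -2.90 ± 1.11 in naive mice, 3.53 ± 0.63 higher in susceptible than in naive mice (limma, adjusted p = 0.0227). Without susceptible 1 neither passed (limma, adjusted p = 0.0593 for S100a9), and S100a9 also failed without naive 2 or susceptible 2. The naive mice stood apart from the others on S100a8, so its relation with Hba-a1 was read within groups: r was 0.386 in the 6 susceptible mice (rho 0.314, exact permutation p = 0.47) and 0.064 on deviations from the group means. Within slides, where naive and defeated mice stand together, r was 0.854, 0.515 and 0.466 on slides 1, 2 and 3. Camp, an antimicrobial peptide of neutrophil granules, rose with the slide as a block, by 0.36 (limma, adjusted p = 0.0374), where 15.1% of all genes passed. Mmp8, Mmp9 and Cxcr2 of that list were above background on 0 arrays. The summed level of its 13 probes, led by Csf3r, which microglia also express, ranged from 70.9 to 156.0 in susceptible, 121 to 129 in resilient and 88.8 to 138 in naive mice. The part of these cells in the globin differences was not tested.

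Lymphocyte and monocyte genes (9 tested of 16) and platelet genes (8 tested of 13) had 0 calls in either direction, with medians of 0.12 and -0.18. In that fit 2.28% of all genes passed, and with the slide as a block 15.1% did. Under the slide block 1 platelet gene rose, Itgb3, an integrin chain, by 0.37, and 1 fell, Clec1b, a platelet receptor, by 0.28 (limma, adjusted p = 0.0453 and 0.0341). Cd3e, a T cell receptor subunit, averaged 2.29 ± 0.68 in susceptible, 2.25 ± 0.11 in resilient and 2.08 ± 0.52 in naive mice, while Cd79a, a B cell receptor subunit, averaged -2.59 ± 0.41 in susceptible, -2.34 ± 0.24 in resilient and -2.58 ± 0.39 in naive mice. Pf4, a platelet chemokine also found in brain macrophages, averaged -0.28 ± 1.05 in susceptible, -0.30 ± 1.45 in resilient and 1.09 ± 0.67 in naive mice. Its r with Hba-a1 was -0.386 (rho -0.323, permutation, adjusted p = 0.31 and 0.46), -0.17 without naive 1 and susceptible 2, and -0.743, -0.102 and -0.692 on slides 1, 2 and 3. Ppbp and Gp1ba, which are more particular to platelets, were above background on 0 arrays. Markers of the vessel wall and of meningeal fibroblasts had negative medians in susceptible against naive mice: -0.45 over 11 endothelial genes, -0.68 over 8 pericyte and smooth muscle genes and -1.05 over 9 meningeal fibroblast genes, with 1 call among them, Slco1a4, an endothelial transporter, at -0.72 ± 0.17 (limma, adjusted p = 0.0435), which 2 of 14 fits with a mouse left out kept. Under that block 4 endothelial genes fell, Slco1a4 by 0.70, Flt1, a receptor of vascular growth factors, by 0.74, Slco1c1, a thyroid hormone transporter, by 0.50 and Abcb1a, a drug efflux pump, by 0.67 (limma, adjusted p from 0.0202 to 0.0445). Cldn5, of endothelial tight junctions, had r of -0.235 with Hba-a1 (rho -0.077, permutation, adjusted p = 0.57 and 0.93), -0.001 without the same mice, and -0.464, 0.491 and -0.729 on slides 1, 2 and 3.

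The remaining lists had 0 calls in susceptible against naive mice, with medians of 0.15 for neuron, -0.35 for astrocyte, -0.43 for oligodendrocyte, 0.11 for microglia and -0.002 for choroid plexus genes. In that fit 2.28% of all genes passed, and with the slide as a block 15.1% did. Each list had a call with that block: the neuron gene Gad1 rose by 0.40, and the astrocyte genes Aldh1l1 and S100b fell by 0.30 and 0.59, Mog of oligodendrocytes by 0.36, Aif1 of microglia by 0.57 and Ttr of the choroid plexus by 1.64 (limma, adjusted p from 0.0165 to 0.0407). In resilient against naive and in susceptible against resilient mice, 0 genes of any of the 15 other lists passed in the fit without the slide. Of all genes 0.138% and 0% did. With the slide, Cygb, Slc25a38 and Hmox1 passed in resilient against naive mice, as 3.93% of all genes did, Slc25a38 at 0.42 (limma, adjusted p = 0.0415).

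**Figure D4:**
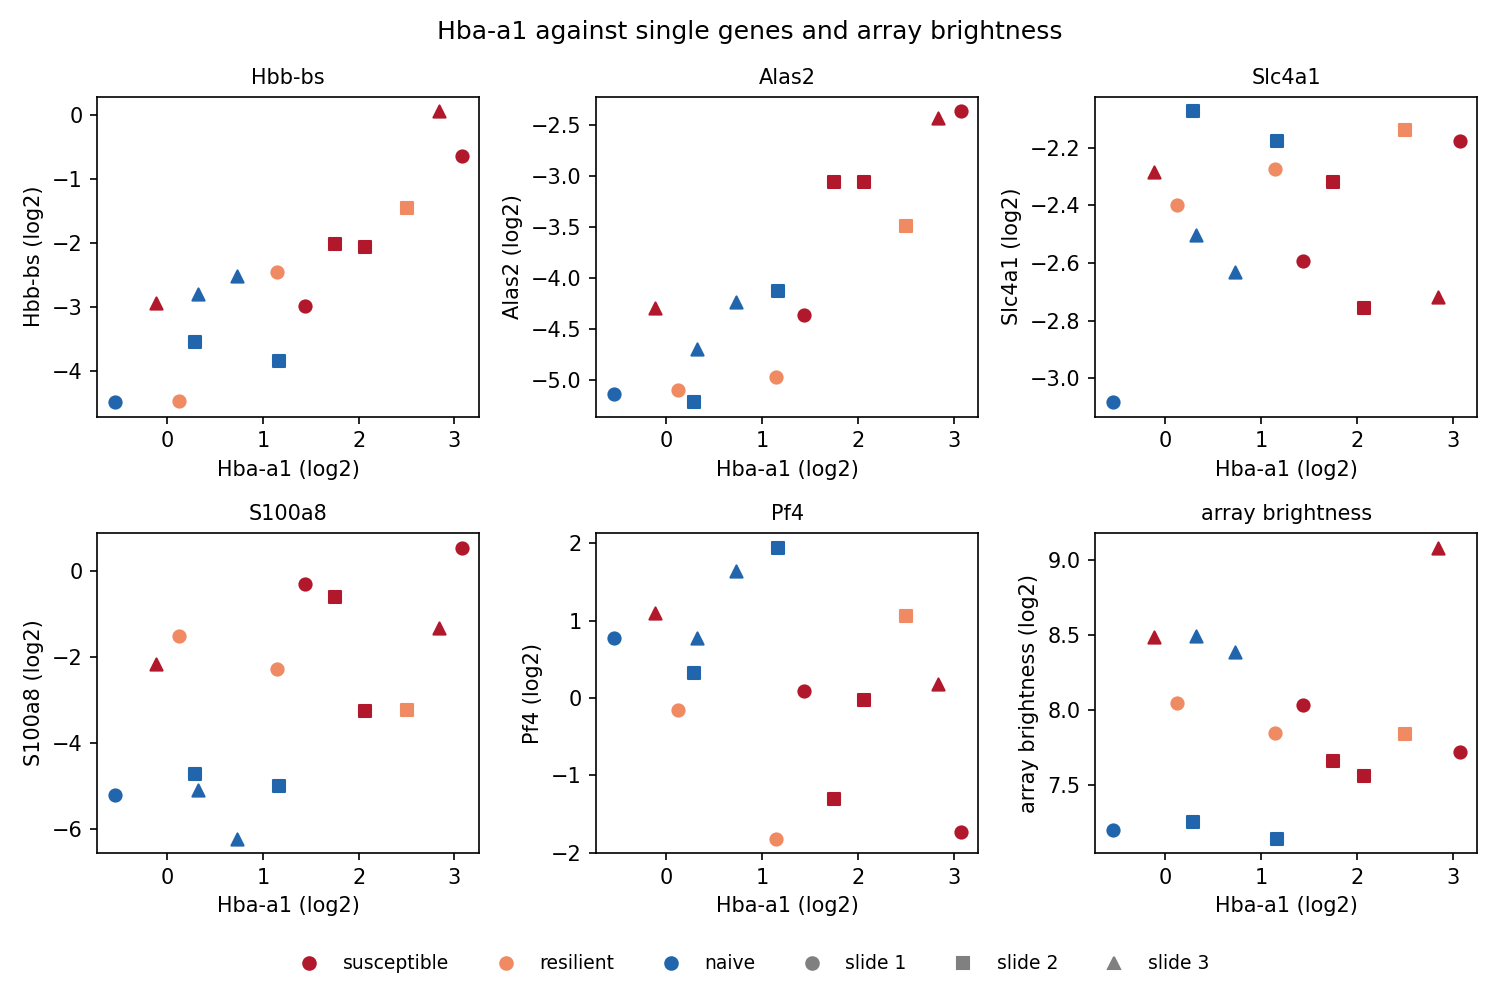
Hba-a1 in log2 units (horizontal) against Hbb-bs, Alas2, Slc4a1, S100a8, Pf4 and the brightness of the array in log2 units (vertical), 1 point per mouse, coloured by group and shaped by slide. Hbb-bs and Alas2 climb with Hba-a1, Slc4a1 (r of 0.2) shows no such course, and naive mice lie apart from the others on S100a8.

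The genes most like the globins across mice were looked up among the 14440 other genes tested, which do not include Alas2. Over 14 mice the highest correlation with the mean of the 5 globins was 0.806, for Rabep1, an endosomal fusion factor, and 1 gene exceeded 0.8. The next were Tmem106b and Ostm1, both of lysosomes, at 0.799, Uck1, a uridine kinase, at 0.791, and Crem, a transcription factor responsive to cAMP, at 0.79. Then came Taf9b (0.775), Zfp932 (0.753), Atg12 (0.752), 1500011B03Rik (0.746) and Zcchc17 (0.745). The full range of these 10 genes over the mice was only 0.30 to 0.87 log2 units, against 3.63 for Hba-a1. At the other end were Med13 (-0.756), Gbp9 (-0.75), 1700029J07Rik (-0.68), Mmp11 (-0.671) and E130114P18Rik (-0.662). These correlations are descriptions over 14 points that share array, scaling and group.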

How the data were processed

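Total RNA of the medial prefrontal cortex of 14 mice was measured on Agilent single-colour arrays (design 028005), 1 mouse per array. Per the file headers and the submitters' processing notes, the authors scanned the arrays with Agilent Feature Extraction 11.0.1.1, and the deposited intensity values used here are its processed signals, background-corrected by that program. The authors' deposited value table holds log2 values scaled to each array's 75th percentile (its 75th percentile is 0 on every array and its medians lie between -3.09 and -2.74), and served as an alternative. It matched the log2 processed signals at r of 1 on each array, so scale and direction are known and genes were not centred.

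Control spots and outlier spots were left out, and the processed intensities of a probe's spots were averaged. Then log2 of this mean was taken, minus the 75th percentile of the array's probe values. Of 55681 probes, 27509 carry a gene symbol and 29815 passed the filter (at least 1 group with every array well above background). The brightest probe of a gene was used, which left 14445 genes. Groups were compared with limma 3.58.1 (R 4.3.3) in 1 fit of the 3 groups without covariates, with Benjamini-Hochberg adjustment over all genes and a threshold of 0.05. Single genes were also compared by exact permutation and relations by 100000 permutations (SciPy 1.17.1). Scripts were tested on simulated data. The number of arrays limits the precision. Replicates are separate mice.

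The members and all gene lists were chosen with earlier results of these data known. Genes named are the 7 members, blood markers, list members past the threshold, the 3 of smallest p in the red cell, heme synthesis and heme breakdown lists, and the 10 and 5 genes with the highest and lowest correlation with the globins. Genes named beyond these (Alas1, Hmox1, Hp, Cygb, Csf3r, Hemgn, Car1, Hmox2, Ireb2 and those above background on no array) were chosen after their values were seen. The alternatives were quantile normalization, normexp background correction with offset 50, the authors' table, no filter and a filter of 3 arrays, the mean of a gene's probes, slide, scan day, brightness or replicate number in the fit, other eBayes settings, only the groups compared, and each mouse left out; the last together with the slide was added after seeing the data. Group, slide and replicate number came from the labels and file headers. Promoter sequences are RefSeq's (GRCm38.p6).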

Additional observations from a re-analysis of the deposited data

How the results depend on the processing

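The count of globins past the threshold in susceptible against naive mice was 0 of 5 and stayed 0 under 9 of the 12 settings that kept all mice. It was 1 with the slide as a block, 1 with the scan day as a block (Hbb-bt in each, adjusted p = 0.0424 and 0.0496 in limma) and 5 with the replicate number as a block. That block, which leaves susceptible 6 out of the comparison because no naive mouse has its number, gave 1.84 for Hba-a1, 2.01 for Hba-a2, 1.89 for Hbb-b2, 1.91 for Hbb-bs and 2.38 for Hbb-bt, all with adjusted p from 0.0108 to 0.0197. Whether the numbers pair the mice is not settled: susceptible and naive mice of the same number correlated at 0.377, 0.496, 0.004, -0.369 and 0.707 in their deviations from the group means, resilient and naive mice at 0.107, 0.316 and 0.279, and susceptible and resilient mice at 0.255, 0.391 and -0.382; in 8 of the 11 pairs the correlation was the best of the first mouse. Leaving out each mouse in turn gave counts of 0 to 3 (3 without susceptible 6), and the same with the slide as a block, added after seeing the data, 0 to 5 (5 without susceptible 6, 2 without resilient 1, 1 without naive 4 or resilient 3). In all these settings the 5 differences between susceptible and naive mice stayed positive, and the counts for the comparisons of resilient with naive and susceptible with resilient mice stayed 0. Signs turned only where a mouse was left out. Between resilient and naive mice the Hbb-bs difference ranged from -0.0303 (without resilient 3) to 1.48, and to 1.87 with the slide as a block. Between susceptible and resilient mice the lowest and highest were -0.0211 and 1.26 for Hba-a2 and -0.0135 and 1.49 for Hbb-bt (lowest without resilient 1), with highest values of 1.21 for Hba-a1, 1.28 for Hbb-b2 and 1.70 for Hbb-bs. With the slide as a block they were -0.0292 and 1.17 for Hba-a1, -0.147 and 1.17 for Hba-a2, -0.168 and 1.04 for Hbb-b2, -0.108 and 1.35 for Hbb-bs and -0.116 and 1.29 for Hbb-bt, lowest without susceptible 2 (for Hbb-bs without resilient 1); without resilient 1 Hbb-bt was at -0.0162, and without susceptible 2 Hbb-bs at -0.0559. The cause was not tested.

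Over all genes the number of calls in susceptible against naive mice, 329, was 583 with quantile normalization, 112 with normexp, 0 without a filter (3494 at an unadjusted p under 0.05), 199 with the 3-array filter, 2185 with the slide, 2462 with the scan day, 1333 with brightness, 1695 with the replicate number, 58 with only these groups in the fit, and from 1 (without susceptible 1) to 747 (without susceptible 6) with a mouse left out. Between resilient and naive mice the 20 calls became 40 with quantile normalization, 567 with the slide, 1453 with the scan day, 979 with brightness, 769 with the replicate number, 0 with normexp, without a filter, with the 3-array filter or with only these groups (2151, 2857, 2897 and 2469 at an unadjusted p under 0.05 in limma), and 0 to 73 with a mouse left out, and between susceptible and resilient mice they stayed at 0 or 1. Signal over background limits Alas2, Hbb-bs and Hbb-b2, and with normexp the susceptible against naive differences of Hbb-bs and Hbb-b2 were 0.52 and 0.84. The labelled experiments, the slide row and how well each mouse was perfused could not be brought into a fit.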
